A study of Mus musculus with 8 samples.

Results

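The 10 transcription regulators described here are Fos, Fosb, Fosl2, Jun, Junb and Jund of the AP-1 family, Egr1, Egr2 and Egr3 of the EGR family, and Ier2. They were taken as every probe set that the platform annotation pairs with a single gene symbol equal to one of these names. That rule gave 15 of the table's 45037 probe sets, for 10 of 18193 genes, of which 8 passed a filter on dim genes that 12969 genes passed. The cells were 32Dcl3, a mouse myeloid line that depends on interleukin-3 (IL-3) and differentiates into neutrophil-like cells when given G-CSF, the granulocyte colony-stimulating factor. One culture carried pMYs-FLAG-ASXL1-MT-IG, a retroviral vector for a mutant ASXL1 carrying a FLAG tag (ASXL1-MT), and the other carried pMYs-IG, the empty vector (mock). ASXL1 works on chromatin, and its mutations are found in myeloid malignancies. Each culture was measured on 1 Affymetrix array under IL-3 and on 1 array each at 2, 6 and 24 h of G-CSF, so the 8 arrays hold no replicate of any condition and their number limits the precision. All groups share the cell line and a vector. The labels do not say whether the time points were separate cultures, whether IL-3 was withdrawn or whether either line was 1 clone. Nor do they give the species of the ASXL1 cDNA. In the main fit of time plus vector, the cultures stand in for replicates of each time, and the times for replicates of each vector. The error behind its p-values therefore holds technical spread together with any difference between the cultures in their response to G-CSF. Spread between replicate cultures was not measured.

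Jun proteins bind DNA as dimers with each other or with Fos proteins, which need a Jun partner, and these AP-1 dimers switch on genes of growth, stress and differentiation. EGR proteins are zinc-finger factors that bind GC-rich sites. Most of these genes are immediate early genes: growth factors and cytokines raise them without new protein synthesis, through ERK, serum response factor, CREB and, for Junb and Fos, STAT3, and the first burst usually fades quickly. In myeloid cells, AP-1 and EGR factors are also known from monocyte and granulocyte maturation.

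The promoters of Fos and Junb, which rose in G-CSF, and of Fosb, which did not pass the test, are shown so that their elements can be compared. Each is 300 bases of GRCm38.p6 from RefSeq, 250 before and 50 after the annotated start, printed 5′ to 3′ on the gene's strand. They lie at chr12:85473640-85473939 on the plus strand for Fos, chr8:84978699-84978998 on the minus strand for Junb and chr7:19309996-19310295 on the minus strand for Fosb. Capitals mark TGACG, the core of the cyclic AMP response element, and TATAAA, the TATA box.
Fos: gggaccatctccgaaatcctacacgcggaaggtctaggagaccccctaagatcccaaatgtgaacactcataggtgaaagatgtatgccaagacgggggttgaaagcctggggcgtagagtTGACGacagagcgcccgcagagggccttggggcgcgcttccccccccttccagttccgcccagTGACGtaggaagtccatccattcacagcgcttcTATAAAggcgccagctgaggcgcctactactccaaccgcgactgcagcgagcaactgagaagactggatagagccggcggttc
Junb: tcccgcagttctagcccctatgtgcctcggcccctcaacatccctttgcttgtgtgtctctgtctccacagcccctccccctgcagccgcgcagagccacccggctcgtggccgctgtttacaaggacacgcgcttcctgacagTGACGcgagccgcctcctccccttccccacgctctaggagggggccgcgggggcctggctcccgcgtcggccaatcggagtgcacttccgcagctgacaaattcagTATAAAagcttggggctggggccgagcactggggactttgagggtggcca
Fosb: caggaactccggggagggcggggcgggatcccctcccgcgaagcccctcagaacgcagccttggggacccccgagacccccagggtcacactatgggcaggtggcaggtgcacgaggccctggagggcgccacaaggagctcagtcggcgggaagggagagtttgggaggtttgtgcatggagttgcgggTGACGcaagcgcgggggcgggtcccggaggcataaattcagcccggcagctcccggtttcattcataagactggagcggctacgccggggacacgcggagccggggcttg
Counting the annotated start as 1, the Fos window held TGACG at -129 to -125 and at -66 to -62 and TATAAA at -33 to -28. The Junb window held TGACG at -106 to -102 and TATAAA at 1 to 6. The Fosb window held TGACG at -60 to -56, with an EGR motif, GCGNGGGCG, at -50 to -42, and no TATAAA. Both strands were searched, and TGACG was present in 20.8%, TATAAA in 13.6% and GCGNGGGCG in 5.6% of 32851 promoter windows of this length. The AP-1 motif TGANTCA (7.8% of windows), the full element TGACGTCA (1.8%), which overlaps TGACG, and the STAT-type motif TTCNNNGAA (8.3%) were in none of the 11 windows found for 7 of the 10 genes. The window of Fosl2 held the EGR motif at -79 to -71, and the Jun and Jund windows held none of the motifs searched. Among the 7 genes with a window, the CArG box that serum response factor binds (1.6% of windows) was in windows of Egr2 alone. No window was found for Egr1, Egr3 and Ier2, and bases further than 250 before the start were not searched in any gene. A match is a description of these letters and not of a factor's binding. TATAAA began at the annotated start in Junb and lay before it in Fos. Whether transcription begins at the annotated starts in these cells was not tested, so positions hold only relative to the annotation. Only these exact spellings were searched, so the lack of a match does not show that a gene lacks a site for STAT3 or another factor.

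Each deposited value was read as log2 expression less the median of its probe set over the 8 arrays, so 0 is a gene's own median and values do not rank genes against each other. The base of 2 was assumed from the submitters' processing notes, which name RMA. The level before centring was estimated from the rounding of the numbers. It was used for the filter and to choose the probe set that stands for each gene, so the values of genes with several probe sets depend on it. Fos, Junb, Ier2 and a Jund probe set (1449117_at) lay at an estimated log2 level above 8, with intervals reaching from 8.35 to 15.35, and their values spanned 0.60 to 2.79 over the 8 arrays. The other 11 probe sets, with estimates of 3.51 to 7.62, spanned 0.74 to 4.34. Over the whole table, the median SD was 0.26 for 13937 probe sets at a level of 8 or more, 0.72 for 22048 at 4 to 8 and 1.34 for 8855 under 4, so the dim members were measured with less precision.

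**Figure D1:**
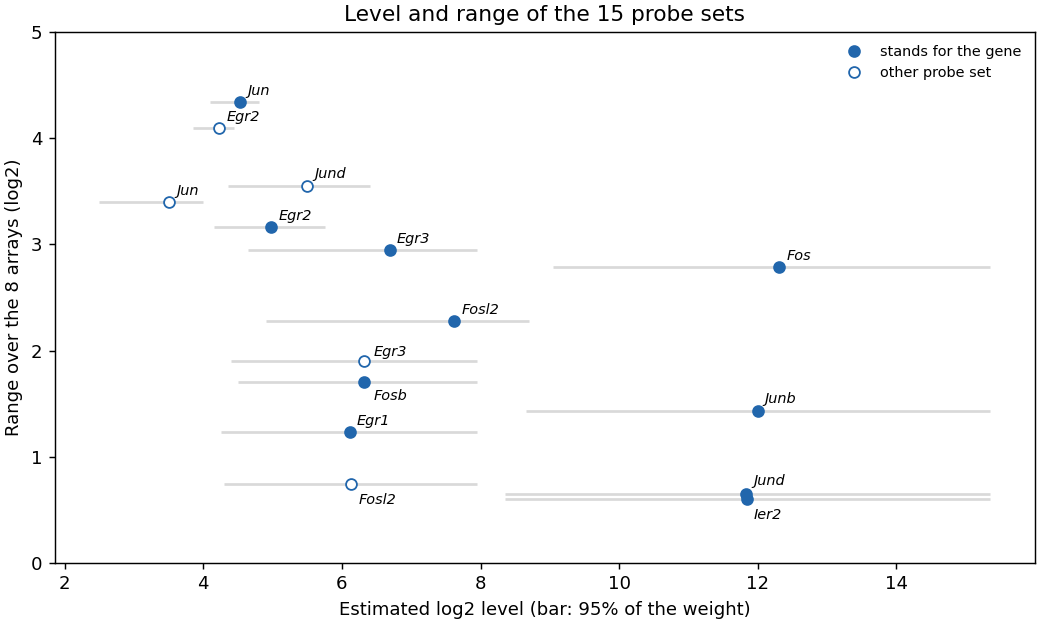
Range of each probe set over the 8 arrays (vertical axis, log2) against its estimated log2 level (horizontal axis, bars holding 95% of the weight) for the 15 probe sets. Filled points stand for the gene in the tests and open points are its other probe sets. The 4 brightest probe sets have bars that start at 8.35 or more, and Jun, at 4.53, has the widest range, 4.34.

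Of 7 myeloid progenitor and granulocyte markers on the array, 6 passed the filter, among them Mpo, Elane, Csf3r and Itgam, and Kit did not. Of other cell types, 1 of 4 lymphoid, 2 of 2 erythroid, 3 of 3 megakaryocyte, 2 of 4 fibroblast and 4 of 4 monocyte and macrophage markers passed. The erythroid markers Klf1 and Epor, the lymphoid Cd8a and the megakaryocyte Gp9 had estimates of 6.3 to 6.6, close to the cut of 6.27. The monocyte marker Ccr2, at 5.5, lay below the cut. The filter passed 12969 of 18193 genes, so passing it does not show that a marker was expressed. Array medians lay between -0.04 and 0.06. Of 3 probe sets for the cells' own Asxl1, the one that stands for the gene read 0.27 to 0.47 lower in ASXL1-MT than in mock cells at the 4 times, and the others read 0.01 to 0.08 lower and 0.16 to 0.99 higher. Whether any of them detects the vector's transcript is not known here.

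Fos encodes the prototype of the Fos proteins and lies on chromosome 12 (85473890 to 85477274, GRCm38.p6). In ASXL1-MT cells its log2 value was -1.51 in IL-3, -0.73 at 2 h, 0.56 at 6 h and 0.95 at 24 h. In mock cells it was -1.01 in IL-3, -0.56 at 2 h, 1.20 at 6 h and 1.28 at 24 h. The 4 arrays of 6 and 24 h lay above all 4 arrays of IL-3 and 2 h, without overlap, and the order of the times was the same in both cultures. In the limma fit, Fos rose 4.42-fold at 6 h (log2 2.15 ± 0.14, SE, 2 arrays against 2, adjusted p = 0.0122) and 5.20-fold at 24 h (log2 2.38 ± 0.14, adjusted p = 0.00604). At 2 h the difference was 0.61 ± 0.14 (adjusted p = 0.513), and no array covers the time before 2 h. In bulk RNA, a higher level and a larger share of cells expressing the gene cannot be told apart.

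Junb encodes a Jun protein that restrains proliferation in myeloid cells and lies on chromosome 8 (84976909 to 84978748). In ASXL1-MT cells it read -0.52 in IL-3, -0.22 at 2 h, 0.22 at 6 h and 0.66 at 24 h. In mock cells it read -0.62 in IL-3, -0.27 at 2 h, 0.22 at 6 h and 0.81 at 24 h. Each time lay above the one before in both cultures, and the arrays of different times did not overlap. Junb rose 1.73-fold at 6 h (log2 0.79 ± 0.10, adjusted p = 0.0192) and 2.48-fold at 24 h (log2 1.31 ± 0.10, adjusted p = 0.00688), with 0.32 ± 0.10 at 2 h (adjusted p = 0.565).

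Ier2, a small nuclear regulator induced early by growth factors, lies on chromosome 8 (84661331 to 84662852). In ASXL1-MT cells it read 0.25 in IL-3, -0.05 at 2 h, -0.35 at 6 h and -0.01 at 24 h. In mock cells it read 0.12 in IL-3, 0.01 at 2 h, -0.34 at 6 h and 0.15 at 24 h. The 6 h arrays were the lowest of each culture, and those of 24 h overlapped IL-3. Ier2 fell at 6 h to 0.693 of its IL-3 level (log2 -0.53 ± 0.10, adjusted p = 0.0432) and differed by -0.11 ± 0.10 at 24 h (adjusted p = 0.489).

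These were the members past the test: 3 of 8 at 6 h, against 17.2% of all genes tested, and 2 of 8 at 24 h, against 26.7%. At 6 h 2 rose, where 9.89% of all genes rose, and 1 fell, where 7.36% fell, while at 24 h 2 rose, where 14.8% rose. At 2 h 0 of 8 passed, against 0.00771% of all genes, a single gene, Boll, named after its value was seen; 1060 genes had an unadjusted p under 0.05 then, Fos, Junb, Egr1 and Egr3 among them. The median log2 difference of the 8 members was -0.17 at 2 h, -0.10 at 6 h and 0.33 at 24 h, beside 0.00, 0.11 and 0.09 for all genes tested. The share of members called at 24 h is near the background, and that at 6 h rests on 8 genes.

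The calls rested on few arrays. With any 1 of the IL-3 or 6 h arrays left out, the adjusted p of Fos at 6 h was 0.0898 to 0.0983, and with any 1 of the 8 arrays left out that of Junb at 6 h was 0.0502 to 0.115 and that of Ier2 0.0774 to 0.186. At 24 h, Fos and Junb missed the threshold when any 1 of the IL-3 or 24 h arrays was left out, with adjusted p of 0.0569 to 0.0648.

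**Figure D2:**
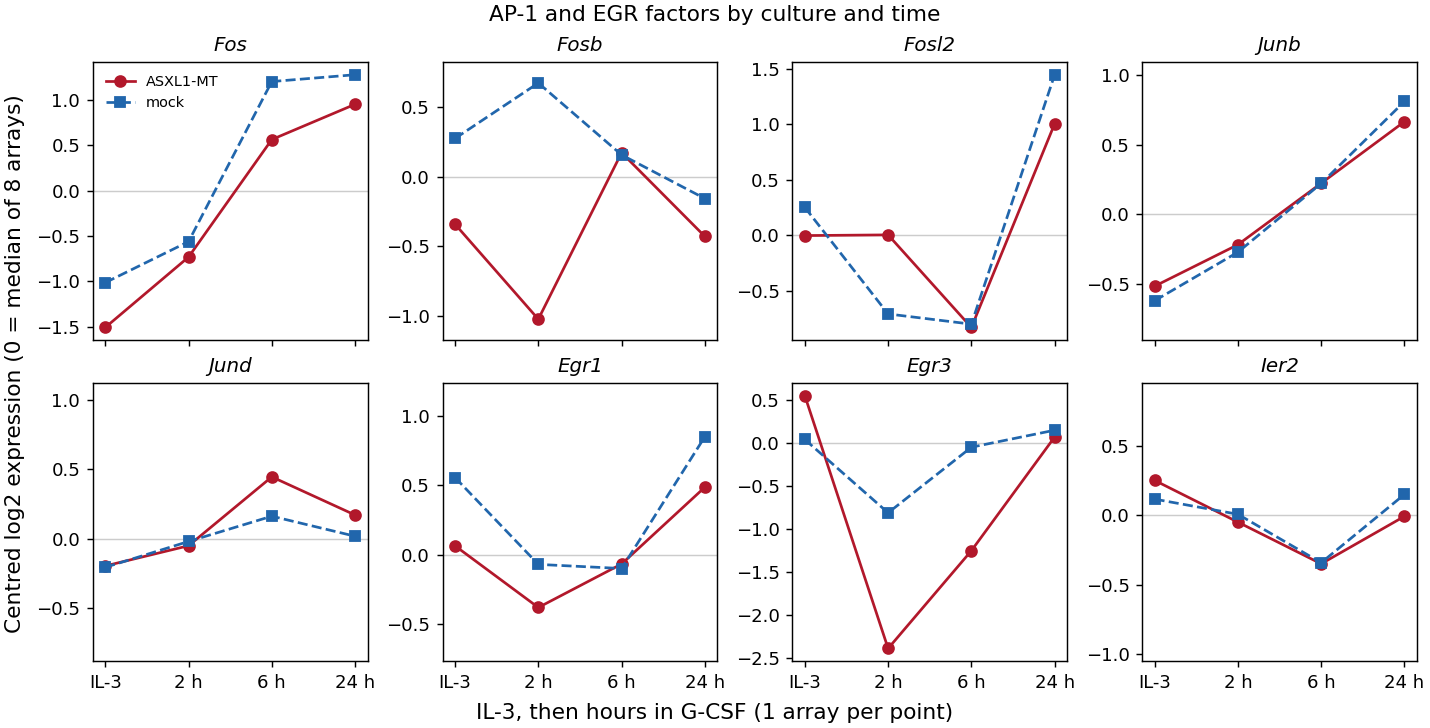
Centred log2 expression (vertical axis, scaled separately in each panel, 0 is the gene's median over 8 arrays) of the 8 members tested, at each time (horizontal axis, IL-3 first, then hours of G-CSF). Each point is 1 array, ASXL1-MT in red circles and mock in blue squares. The Fos lines climb to 0.95 and 1.28 at 24 h, the Junb lines lie nearly on each other, and the Fosb and Egr3 lines part at 2 h.

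Neither Fosl2 nor Fosb passed the test at any time. Fosl2, whose product FRA-2 is a Fos protein without the strong activation domain of FOS, lies on chromosome 5 (32136472 to 32157840). Its probe set 1437247_at read 0.00, 0.00, -0.83 and 1.00 in ASXL1-MT cells and 0.25, -0.71, -0.80 and 1.44 in mock cells, in the order IL-3, 2, 6 and 24 h. The 24 h arrays were the highest and the 6 h arrays the lowest of each culture. The difference from IL-3 was -0.94 ± 0.31 at 6 h (adjusted p = 0.122) and 1.10 ± 0.31 at 24 h (adjusted p = 0.0728), and from 6 to 24 h the value was higher by 1.83 in ASXL1-MT and 2.24 in mock cells, a step that was not tested. Over the 7725 genes of a stricter filter, Fosl2 passed at 6 h (adjusted p = 0.0342) and at 24 h (adjusted p = 0.0164). Its second probe set, 1422931_at, read 0.32, 0.04, -0.23 and 0.00 in ASXL1-MT cells and -0.25, 0.20, -0.42 and 0.00 in mock cells. It was lowest at 6 h in both cultures, like the first, but not highest at 24 h.

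Fosb, a close relative of Fos on chromosome 7 (19302696 to 19310118), read -0.34, -1.02, 0.17 and -0.43 in ASXL1-MT cells and 0.28, 0.67, 0.16 and -0.16 in mock cells over the same times. The widest gap between the cultures was at 2 h, and they met at 6 h. Its differences from IL-3 were -0.14 ± 0.46 at 2 h, 0.20 ± 0.46 at 6 h and -0.26 ± 0.46 at 24 h, each smaller than its error.

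Among the other Jun genes, Jund, a Jun protein that is typically present without stimulation, lies on chromosome 8 (70697739 to 70700616). Its bright probe set, 1449117_at, read -0.19, -0.05, 0.45 and 0.17 in ASXL1-MT cells and -0.20, -0.02, 0.16 and 0.02 in mock cells. The 6 h array was the highest of each culture and the IL-3 array the lowest. At 6 h the difference was 0.50 ± 0.11 (adjusted p = 0.0549) and it passed under the stricter filter (adjusted p = 0.0109). The dim Jund probe set, 1440265_at, read 1.14, 0.38, 0.87 and -0.40 in ASXL1-MT cells and -0.05, 0.05, -0.98 and -2.42 in mock cells, lowest at 24 h in both, and did not follow the bright one.

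Jun, the founding AP-1 protein, on chromosome 4 (95049036 to 95052222), did not pass the filter and was not tested. Its probe set 1448694_at read 0.37, 0.64, -0.82 and -0.18 in ASXL1-MT cells and -3.70, 0.61, 0.18 and -1.92 in mock cells. Its probe set 1417409_at read -0.25, 1.00, 0.25 and -1.01 in ASXL1-MT cells and -0.91, -1.75, 1.65 and 1.24 in mock cells. Against IL-3, the 2 probe sets of Jun moved in opposite directions at 2 h in mock cells and at 6 h in ASXL1-MT cells. In the other comparisons they moved the same way, and at 24 h both were lower in ASXL1-MT and higher in mock cells. At estimated levels of 4.53 and 3.51 they give no direction for the gene.

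Of the EGR genes, Egr1, which ties growth factor signals to differentiation and lies on chromosome 18 (34861207 to 34864956), read 0.07, -0.38, -0.07 and 0.49 in ASXL1-MT cells and 0.56, -0.07, -0.10 and 0.85 in mock cells. In both cultures the 24 h array was the highest, and the 2 and 6 h arrays lay below IL-3. The differences from IL-3 were -0.53 ± 0.15 at 2 h (adjusted p = 0.564), -0.39 ± 0.15 at 6 h (adjusted p = 0.165) and 0.36 ± 0.15 at 24 h (adjusted p = 0.171).

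Egr3, an EGR factor known from lymphocytes, muscle and neurons, lies on chromosome 14 (70077317 to 70082613). Its probe set 1421486_at read 0.55, -2.39, -1.25 and 0.07 in ASXL1-MT cells and 0.04, -0.81, -0.04 and 0.15 in mock cells. The 2 h array was the lowest of each culture, and the 24 h arrays overlapped IL-3. At 2 h the difference was -1.90 ± 0.59 (adjusted p = 0.569), the largest in size among the 8 members tested. Its second probe set, 1436329_at, read 1.03, 0.35, -0.81 and -0.15 in ASXL1-MT cells and 0.02, -0.02, -0.87 and 0.85 in mock cells, and was lowest at 6 h.

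Egr2, which directs hindbrain and Schwann cell development and acts in macrophages, lies on chromosome 10 (67534469 to 67542188), did not pass the filter and was not tested. Its probe set 1427683_at read 0.98, -0.04, -2.18 and 0.09 in ASXL1-MT cells and -0.34, 0.33, 0.04 and -1.78 in mock cells. Its probe set 1427682_a_at read 1.17, -0.46, 0.46 and -2.58 in ASXL1-MT cells and 0.91, 1.18, -2.91 and -2.58 in mock cells. In ASXL1-MT cells the lowest array was that of 6 h in the first and of 24 h in the second probe set, and in mock cells that of 24 h in the first and of 6 h in the second.

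**Figure D3:**
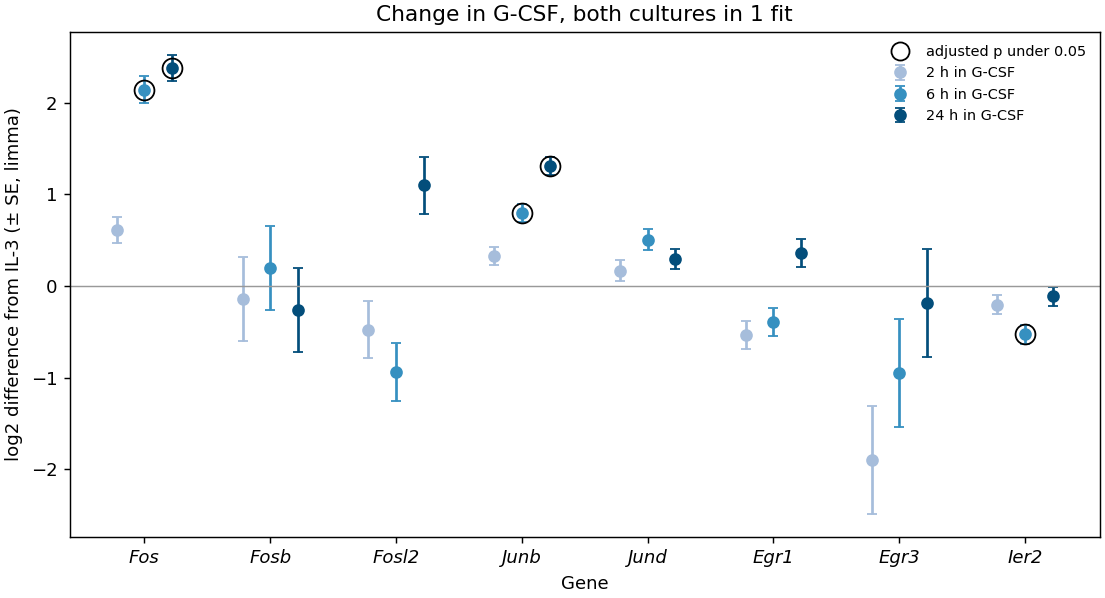
Difference from IL-3 (vertical axis, log2, points with bars of ± SE from limma) at 2, 6 and 24 h in G-CSF for each member tested (horizontal axis), over 2 arrays on each side. Black rings mark an adjusted p under 0.05: Fos and Junb at 6 and 24 h, and Ier2 at 6 h.

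Between the vectors, 0 of 8 members passed the test, against 0% of all genes tested with limma, where 836 genes had an unadjusted p under 0.05. Fos was lower in ASXL1-MT than in mock cells at 4 of 4 times, by 0.17 to 0.64, and its difference over the times was -0.41 ± 0.10 (4 arrays against 4, adjusted p = 0.730). Egr1 was lower in ASXL1-MT cells at 3 of 4 times, with -0.28 ± 0.11 (adjusted p = 0.781). Those were the members whose differences were over 2 errors wide. Fosb differed by -0.64 ± 0.32 (adjusted p = 0.786) and Egr3 by -0.59 ± 0.42 (adjusted p = 0.806), each with its widest gap at 2 h. Junb, at 0.00 ± 0.07, Fosl2, at 0.00 ± 0.22, Ier2, at -0.02 ± 0.07, and Jund, at 0.10 ± 0.08, differed by little more than their errors or less. The value for Jund is that of its bright probe set; the dim one, 1440265_at, was higher in ASXL1-MT cells at 4 of 4 times, by 0.34 to 2.02, with 1.35 ± 0.34 in the limma fit of every probe set (adjusted p = 0.918). The median of the 8 members was -0.15, beside 0 for all genes tested.

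The G-CSF response of Fos was close in size in the cultures: from IL-3 to 24 h it was 2.46 higher in ASXL1-MT and 2.29 higher in mock cells, and for Junb 1.18 and 1.43 higher. In the test of whether the ASXL1-MT difference at 24 h departed from that at the earlier times, 0 of 8 members passed, against 0% of all genes, where 764 had an unadjusted p under 0.05. The members' values ran from -0.58 ± 0.49 for Fosl2 to 0.68 ± 1.04 for Egr3, each with an adjusted p of 0.994. These errors leave room for sizeable differences between the cultures.

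**Figure D4:**
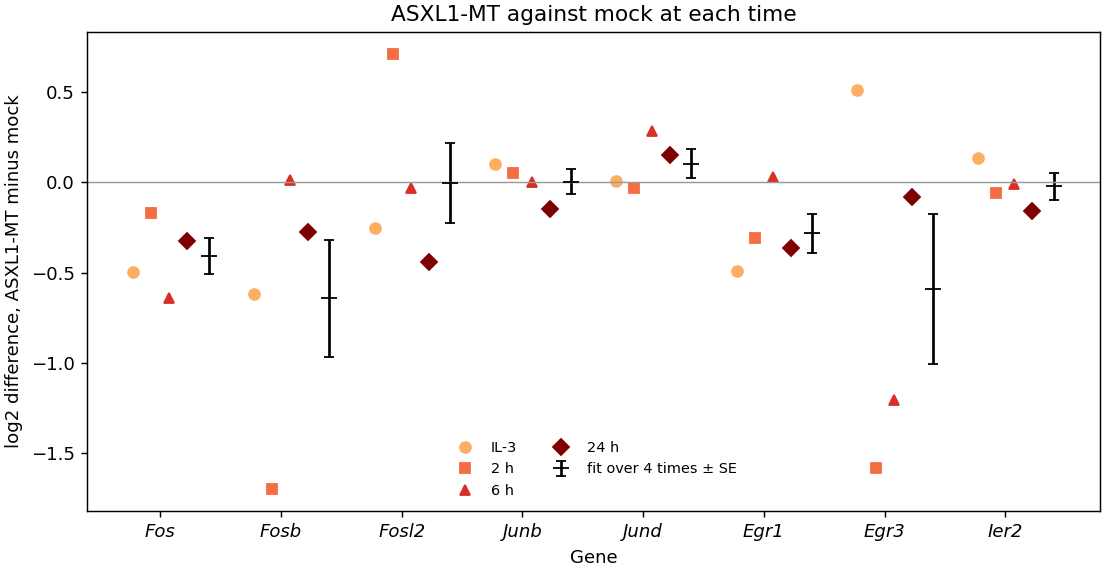
Difference of ASXL1-MT from mock (vertical axis, log2) for the 8 members tested (horizontal axis), as coloured points for IL-3, 2, 6 and 24 h, 1 array in each culture. The black bars are the limma estimate over the 4 times ± SE. The 4 Fos points lie below 0, from -0.64 to -0.17, and the Junb points lie within 0.15 of 0.

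Around these factors, 11 other AP-1 partners (the remaining Fos, ATF, BATF, JDP and small Maf proteins) were listed and 8 tested. Fosl1, which encodes the Fos protein FRA-1, had log2 differences of -2.06 ± 0.20 at 6 h and -1.10 ± 0.20 at 24 h and so fell at both times, opposite to Fos. Atf2, a CREB-like dimer partner of Jun, rose by 0.44 ± 0.08 at 6 h and 0.64 ± 0.08 at 24 h. Mafk, a small Maf protein, fell by 0.77 ± 0.09 at 6 h, and Jdp2, a repressor of AP-1, rose by 0.70 ± 0.12 at 24 h. In all, 1 of 8 rose and 2 fell at 6 h, and 2 rose and 1 fell at 24 h, with medians of -0.11 and 0.22. Of all genes tested, 9.89% rose and 7.36% fell at 6 h, and 14.8% rose and 12% fell at 24 h. The counts of each related list below are to be read beside these shares. Of the EGR co-repressors, Nab2, which binds and restrains EGR proteins, rose by 0.85 ± 0.14 at 24 h, and Nab1 did not pass (0.21).

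Upstream of the immediate early promoters, 8 of 9 listed serum response, ternary complex and CREB factors were tested. At 6 h 3 rose and 1 fell, and at 24 h 2 rose. Mrtfa, the actin-controlled coactivator of SRF, rose by 1.47 ± 0.12 at 6 h and 1.99 ± 0.12 at 24 h, and Elk3, a ternary complex factor, by 0.95 ± 0.08 and 0.67 ± 0.08. Srf itself fell at 6 h by 0.72 ± 0.12, and Elk4 rose by 0.68 ± 0.14. Of 13 RAS-MAPK kinases and adaptors tested, 1 rose and 1 fell at 6 h and 1 rose at 24 h. Rps6ka3, the kinase RSK2 that acts below ERK, rose by 1.49 ± 0.10 at 6 h and 2.20 ± 0.10 at 24 h, and Sos1, a RAS exchange factor, fell at 6 h by 0.45 ± 0.09.

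Of 21 other immediate early genes tested, 3 rose and 1 fell at 6 h, where 9.89% of all genes rose and 7.36% fell. At 24 h 11 rose and 1 fell, where 14.8% of all genes rose and 12% fell. At 6 h those that rose, with the log2 difference in brackets, were Rgs1, a regulator of G-protein signalling (1.47), Zfp36, which destabilises AU-rich mRNAs (0.97), and Btg2, an antiproliferative factor (0.74), and Myc fell (-1.25). At 24 h they included Nfkbia, the NF-kB inhibitor (1.69), Csrnp1 (1.64), Zfp36l1 (1.46) and Btg2 (1.15), and Rgs1 was then lower than in IL-3 (-0.96). Their median log2 difference was 0.20 at 6 h and 0.45 at 24 h, beside 0.11 and 0.09 for all genes. Of 8 tested genes known as AP-1 or EGR targets, 0 rose at either time. Hbegf, a growth factor of the EGF family (-3.02 ± 0.56), and Plaur, the urokinase receptor (-0.96 ± 0.11), fell at 6 h, and none of the 8 passed at 24 h. No gene of these lists passed between the vectors, and none at 2 h, when Myc was at -1.93 ± 0.08 (adjusted p = 0.0626). At 2 h, 2 of the other immediate early genes were lower past the threshold under the stricter filter and 1 with no vector term.

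The calls in these lists also depended on single arrays. With any 1 of the IL-3 or 6 h arrays left out no gene of the lists passed at 6 h, and with any 1 of the IL-3 or 24 h arrays none passed at 24 h, as 0 genes passed in all. Whichever of the 8 arrays was left out, 0 of the other immediate early genes and 0 of the other AP-1 partners rose at 6 h, and Nab2 did not pass at 24 h. Of all genes tested, 17.2% were called at 6 h and 26.7% at 24 h. The RAS-MAPK genes, with 2 of 13 and 1 of 13, were near that share at 6 h and below it at 24 h. The other immediate early genes, with 3 higher and 1 lower of 21, were near it at 6 h. At 24 h, with 11 higher and 1 lower, they were above it. The serum response, ternary complex and CREB factors, with 2 called of 8, were near it at 24 h. Lists of 8 genes are too small for a share to be read closely. All lists were chosen with earlier results of these data known, so a share above that of all genes is a description only.

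**Figure D5:**
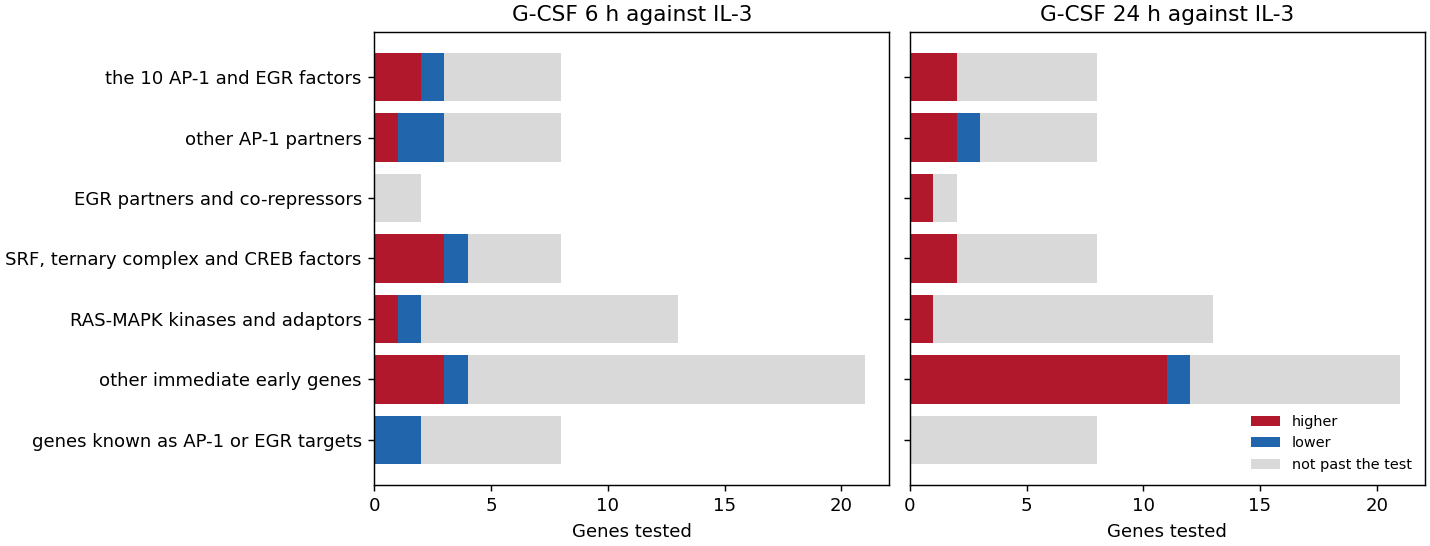
Genes tested (horizontal axis) in the 10 factors and in each related list, for G-CSF at 6 h (left) and 24 h (right) against IL-3, split into those that were higher, lower or not past the limma test. The longest red bar is that of the other immediate early genes at 24 h, with 11 of 21 higher.

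Markers of cell types moved as well. Of 6 myeloid markers tested, 3 rose at 6 h, where 9.89% of all genes rose, and 6 at 24 h, where 14.8% rose. The mean centred log2 value of the 7 myeloid markers on the array was 0.90 in ASXL1-MT and 1.11 in mock cells at 24 h, against -0.53 and -0.68 in IL-3. Of 4 monocyte and macrophage markers, 0 passed at 6 h and 3 rose at 24 h, Csf1r, Cd68 and Ccr2. Ccr2, at an estimated level of 5.5, lay below the cut of 6.27 and passed the filter only through its highest arrays. Its count among the markers that rose is therefore not separate from the filter. The mean of the 4 markers was 1.67 in ASXL1-MT and 2.05 in mock cells at 24 h, against -0.29 and -0.53 in IL-3. Of the other lists, the erythroid marker Epor rose at 6 and 24 h (log2 differences of 0.79 and 0.77) and Klf1 fell at 24 h (-1.12), the megakaryocyte marker Itga2b rose at 24 h (0.83), and the fibroblast marker Pdgfrb rose at 6 h (1.11). The 1 lymphoid marker tested did not pass. The part of these markers in the changes of Fos, Junb and Ier2 was not tested.

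Genes most like each member were ranked by Pearson's r over the 8 arrays, which share 4 times, as a description with no test. For Fos they were Sh2d3c (0.997), Cideb (0.992) and Slc49a4 (0.990), and for Junb Dram2 (0.994), Sirt3 (0.994) and Cdkn2d (0.990). Ier2 was most like Tmem245 (0.987), Vps13a (0.984) and Plaur (0.975), the last of which is also on the list of targets. For Egr1 they were Cep68 (0.986), Atp6v1e1 (0.969) and Igha (0.968), for Jund Pcna (0.981), and for Fosl2 Macir (0.979). The best matches of Fosb (0.927) and Egr3 (0.960) were the weakest of the 8.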

How the data were processed

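RNA from 8 samples was hybridised to Affymetrix mouse arrays. MAS 5.0 captured the intensities, per the labels, and RMA is named in the submitters' processing notes. The deposited values are log2 expression centred on each probe set's median (within 5e-07 of 0); the sources used here give neither the centring nor the log base or scaling. The design text names the A array, while the table holds 45037 probe sets. Of these, 34945 had 1 gene symbol, 932 several and 9160 none, per the platform annotation.

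Levels before centring were estimated from the rounding step. Of 8000 simulated probe sets, 97.5% fell on the correct side of the simulated levels' own median, with a median absolute error of 0.723 log2. Each gene took its brightest probe set by rounded level and was tested if its second-highest array reached the table's median level, 6.27. A gene with a lower median level could thus pass through its highest arrays alone. The simulation did not check that cut, and intervals of dim members, such as 4.50 to 7.95 for Fosb, spanned it. All 12969 were fitted with limma 3.58.1 (R 4.3.3; lmFit, eBayes; time plus vector, 3 residual degrees of freedom, 2 with the 24 h term), two-sided, at a Benjamini-Hochberg adjusted p of 0.05. The labels give no batch. The fit was tested on simulated data.

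Symbols, locations and promoters are from RefSeq, GRCm38.p6. The genes most alike were the 3 with the highest r. In each related list the genes named were those past the test, at most the 4 largest. Members and lists were chosen with earlier results of these data known.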

Additional observations from a re-analysis of the deposited data

Results flagged for a closer look

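In 16 of 45 changes from IL-3 over the 15 probe sets, the single array of each culture moved in opposite directions. With 1 array per culture and time, these differences were not tested. In probe sets that stand for a tested gene there were 5. Fosb was 0.68 lower in ASXL1-MT and 0.40 higher in mock cells at 2 h, a difference between the cultures' changes of -1.08 on the log2 scale, and 0.51 higher and 0.12 lower at 6 h, a difference of 0.63. Fosl2 (1437247_at) was 0.01 higher in ASXL1-MT and 0.96 lower in mock cells at 2 h, a difference of 0.97. For Egr3 (1421486_at) the difference at 24 h was -0.59, and for Ier2 it was -0.29.

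The other 11 lay in probe sets that do not stand for a tested gene. For Jun the differences were 2.09 at 2 h and -2.91 at 24 h in 1417409_at, and -5.06 at 6 h and -2.32 at 24 h in 1448694_at. For Egr2 they were -1.90 at 2 h in 1427682_a_at, and -1.69 at 2 h and -3.54 at 6 h in 1427683_at. The second probe set of Fosl2 gave -0.73 at 2 h and -0.56 at 24 h, that of Jund gave -0.85 at 2 h, and that of Egr3 gave -2.01 at 24 h.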

How the results depend on the processing

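Of 585 recomputed differences of the 8 members, 511 kept their direction and their side of the threshold, 40 lost the call, 7 gained it and 27 changed sign. Only the values called in the main fit, 3 at 6 h and 2 at 24 h, could lose a call. The 40 are therefore to be read against the recomputed values of these alone, and not against all 585. Most of the 585 were recomputed from values never called, so the 511 do not measure how well the calls held. The cause of each change was not tested. At 2 h, where 1 gene passed, 33 passed with the stricter filter, 2 with a second quantile normalization and 15 with no vector term, that is, without the replicate block of the cultures. At 2 h 0 passed with no filter (1158 at an unadjusted p under 0.05), with the mean of all probe sets (1010), with every probe set tested (2884) and with the 4 arrays compared alone (817). At 6 h, where 2237 passed, 567 did so with no filter, 3490 with the stricter filter, 0 with every probe set (8479 unadjusted) and 0 with 4 arrays (3549); of the members, 1, 5, 0 and 0 passed, against 3. At 24 h, where 3466 passed, 1771 did so with no filter, 477 with every probe set and 0 with 4 arrays (4088); of the members, 1 passed with every probe set and 0 with 4 arrays, against 2. Between the vectors 2 genes passed, none a member, with no time term (no replicate block), against 0. Leaving out 1 array at a time gave 0 calls at 2 h, 0 to 597 at 6 h (0 to 1 of the members) and 0 to 2332 at 24 h (0 to 3 of the members), and 0 between the vectors and for the 24 h effect. Besides the calls lost without an array, Ier2 at 6 h missed the threshold when a gene's probe sets were averaged (adjusted p = 0.0587), and Junb (0.0600) and Ier2 (0.110) with no filter. With the mean of its probe sets Jund turned to -0.081 at 2 h, -0.048 at 6 h and -0.83 at 24 h. Between the vectors Fosl2 turned to 0.074 with the mean of probe sets and 0.020 with quantile normalization, and Junb to -0.0097 with array medians set to 0. In the 24 h effect Egr3 turned to -0.40 with the mean of probe sets and Jund to -0.0067 with quantile normalization. With 1 array left out, Fosb ran from -0.85 to 0.56 at 2 h and from -0.24 to 0.64 at 6 h, Fosl2 from -0.95 to 0.00017 at 2 h, and Egr3 from -0.92 to 0.55 at 24 h. Between the vectors, Fosl2 then ran from -0.24 to 0.14, Junb from -0.030 to 0.053 and Ier2 from -0.074 to 0.023, and Egr1 from -0.22 to 0.038 in the 24 h effect. The number of arrays limits all of these.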
